A study of Mus musculus with 3 samples.

Results

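Small nuclear RNAs (snRNAs), small nucleolar RNAs (snoRNAs) and small Cajal body-specific RNAs (scaRNAs) were described in RNA from the cytosol of macrophages that were grown from mouse bone marrow. A gene was taken when its only annotated transcript type was snRNA, snoRNA or scaRNA and its TPM (a count divided by the gene's effective length, put on a scale that has 1 sum for every library) reached 1 in at least 1 of 3 libraries. Of 2941 annotated genes of these types, 113 met the rule, among 55536 genes in the tables. They were 43 of 1383 snRNA genes, 58 of 1507 snoRNA genes and 12 of 51 scaRNA genes. The members were chosen by these TPM values, so the levels below are a description and carry no test.

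The data were ribosome-depleted total RNA sequencing of primary C57BL/6J macrophages at 0 minutes of exposure to 100 ng/ml lipid A, the part of lipopolysaccharide that activates the receptor TLR4. All 3 libraries belong to this 1 group, are labelled as biological replicates 1, 2 and 3, and started from 1 µg of RNA. Their biosamples differ and their donor label is shared. The labels do not say whether they came from separate cultures or animals, and age and sex were not collected, so the spread between libraries may be technical. With 1 group, the comparison of replicate 3 with the other libraries is 1 library against 2, which has no replicate check, and no p-value is given.

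In vertebrates, snRNAs with bound proteins form the spliceosome, in which U1 pairs with the 5′ splice site and U2 with the branch point, U4 escorts U6 into the complex, and U12 takes the place of U2 for a minor class of introns. Box C/D snoRNAs guide ribose methylation of ribosomal RNA and box H/ACA snoRNAs guide its pseudouridylation, while U3 acts in the cleavage of the ribosomal RNA precursor. ScaRNAs guide the same modifications on snRNAs in Cajal bodies. Most of these RNAs work in the nucleus, and the Sm-class snRNAs pass through the cytoplasm, where the Sm ring is added, before they return.

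Expected counts over genes came to 26318761, 41897257 and 56290298 in replicates 1, 2 and 3. Replicate 3 stood apart from the other libraries across all genes. Of 13579 genes with a mean count of at least 10, 900 were at least 2-fold higher in replicate 3 than in both other libraries, which is 6.63%. The same count was 35 (0.258%) for replicate 1 and 23 (0.169%) for replicate 2. All 7 macrophage markers examined were detected in every library, and their summed TPM ran from 5082 to 7271. The 3 T cell and 3 B cell markers summed to at most 0.09 TPM, and Ly6g of the neutrophil list and the 3 erythroid markers were at 0 counts. Neutrophil markers summed to 18.9 to 19.2 TPM.

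The sequences of the RNAs on which the results turn are shown from the GENCODE M21 transcripts (mm10), 5′ to 3′ as DNA letters. Capitals in the first 3 mark ATTTNTG, the letters of the Sm site on which the Sm protein ring assembles. Rnu1a1 (U1) lies at chr11:87422867-87423030 on the plus strand, in an intron of Tex14. Rnu2-10 (U2) lies at chr11:101658238-101658428 on the plus strand, and Rnu12 (U12) at chr15:83149644-83149794 on the plus strand, both outside genes of the same strand.
Rnu1a1: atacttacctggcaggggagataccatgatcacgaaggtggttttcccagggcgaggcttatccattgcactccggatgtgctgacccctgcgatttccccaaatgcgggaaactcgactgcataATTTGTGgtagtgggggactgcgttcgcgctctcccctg
Rnu2-10: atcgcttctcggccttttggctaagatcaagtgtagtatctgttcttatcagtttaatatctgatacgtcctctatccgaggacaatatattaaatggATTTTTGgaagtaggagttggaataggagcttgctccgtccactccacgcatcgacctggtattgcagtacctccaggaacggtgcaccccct
Rnu12: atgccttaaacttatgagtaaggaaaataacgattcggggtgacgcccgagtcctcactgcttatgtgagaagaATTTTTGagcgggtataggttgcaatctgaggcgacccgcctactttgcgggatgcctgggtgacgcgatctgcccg

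The letters ATTTNTG were present in 39 of 43 snRNA members (90.7%), against 283 of all 1383 annotated snRNA genes (20.5%). Of the 247 snRNA genes that were long enough to receive a TPM and were not members, 90 held them (36.4%). On the opposite strand the letters occurred in 0 of 43 members and in 12.7% of the annotated genes. By family, ATTTNTG was in 35 of 36 U1, U2, U4 and Rnu12 members and in 4 of the 7 other snRNA members. It was in 52 of 69 annotated U1 genes (75.4%). Identical copies were counted separately, and the 22 U1 and 11 U2 members held 12 and 7 distinct sequences. The contrast with all annotated genes thus mixes the letters with family and copy number. ACTTACCT, the stretch of U1 that pairs with the 5′ splice site, was in 20 of 22 U1 members and in 42 of 69 annotated U1 genes (60.9%). The U2 letters GTAGTA, which pair with the branch point, were in all 11 U2 members and in 14 of 16 annotated U2 genes (87.5%). Members also stood closer to a named gene. The 22 U1 members matched their nearest named U1 gene at a median of 99.4% identity, and the 47 other U1 genes at 84.8%. Identity of at least 95% was found in 20 of the 22 and in 7 of the 47. Reads are divided among close copies, so a gene close to an abundant named gene can become a member through shared reads. This contrast in identity is therefore partly set by the rule, and it counts identical copies among the 22 separately.

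The next sequences show the close copies. Gm22513, at chr12:54696782-54696945 on the plus strand, had the highest TPM of all members. It differs from Rnu1a1 by the substitution T60C (positions from 1 at the 5′ end), in capitals. Gm24265 and Gm24407, at chr5:115489459-115489599 and chr5:115490254-115490394 on the plus strand, carry the sequence of U4, although their symbols do not say so, and differ at G88A and C99A, in capitals.
Gm22513: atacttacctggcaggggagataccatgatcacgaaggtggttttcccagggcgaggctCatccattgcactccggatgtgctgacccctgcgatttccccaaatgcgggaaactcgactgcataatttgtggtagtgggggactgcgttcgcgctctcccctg
Gm24265: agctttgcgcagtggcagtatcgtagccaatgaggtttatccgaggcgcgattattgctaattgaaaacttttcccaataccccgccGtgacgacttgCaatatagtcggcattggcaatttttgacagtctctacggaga
Gm24407: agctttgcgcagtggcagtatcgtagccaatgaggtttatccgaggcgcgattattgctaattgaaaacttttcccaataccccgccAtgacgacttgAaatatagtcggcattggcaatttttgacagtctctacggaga

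For the guide RNAs, Snord22 is shown because its TPM turns on its length, with the box C/D letters CTGA in capitals. It lies in an exon of Snhg1 at chr19:8725866-8725991 on the plus strand. Snora73b, in an intron of Snhg3 at chr4:132352322-132352526 on the minus strand, is shown with the closing ACA and its last 3 bases in capitals. Gm22009, the member with the most counts, lies in an intron of Kpna4 at chr3:69085105-69085447 on the minus strand, and its first 171 of 343 bases are shown, with the letters ATGATGA in capitals.
Snord22: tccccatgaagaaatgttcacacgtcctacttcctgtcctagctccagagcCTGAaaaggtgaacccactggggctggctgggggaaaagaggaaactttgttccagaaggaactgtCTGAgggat
Snora73b: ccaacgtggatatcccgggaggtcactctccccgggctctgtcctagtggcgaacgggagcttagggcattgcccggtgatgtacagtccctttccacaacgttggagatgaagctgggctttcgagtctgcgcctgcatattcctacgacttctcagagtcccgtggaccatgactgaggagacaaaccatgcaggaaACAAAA
Gm22009: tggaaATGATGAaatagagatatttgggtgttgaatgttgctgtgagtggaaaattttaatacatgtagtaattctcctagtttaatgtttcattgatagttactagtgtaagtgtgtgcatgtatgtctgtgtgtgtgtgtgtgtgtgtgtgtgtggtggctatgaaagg

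Among genes with a Snord symbol, the C box (ATGATGA or GTGATGA) was in 3 of 4 members and 71 of 98 annotated genes (72.4%), and the D box CTGA was in all of both. The ACA that stands 3 bases before the end of box H/ACA RNAs was in 12 of 14 members with a Snora symbol and in 35 of 43 annotated ones (81.4%). ANANNA, the letters of the H box, was in every gene of both groups, but it was also on the opposite strand of 12 of the 14 and 39 of the 43, and in 94.8% of annotated snRNA genes. Among unnamed snoRNA genes the closing ACA was in 12 of 27 members and in 19.5% of the 950 annotated. Of the 950, 443 were long enough to receive a TPM. The share among these 443 was not taken, so this contrast mixes the letters with length.

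Length decided which genes could be members. The RSEM-format gene tables list an effective length, the number of positions at which a fragment could start, and it was 0 in all 3 libraries for 1792 of the 2941 genes (60.9%), all of 125 bases or fewer. A gene with an effective length of 0 has no TPM. All 548 annotated U6, 10 U5 and 33 U7 genes were in this position, and of 166 box C/D genes 6 had a length above 0. Of the 1149 genes with an effective length above 0 in any library, the members made up 9.83%. Members were 126 to 414 bases long, with a median of 164, and their median effective length was 6.75, 7.89 and 8.28 in replicates 1, 2 and 3.

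Because TPM divides by this length, 1 expected count was worth very different TPM. A count of 1 gave 20.5 TPM at the shortest effective length among members in replicate 1 and 0.114 TPM at the longest. In replicate 3 the same ends were 9.00 and 0.0454 TPM. A member with an effective length below 21.1, 11.8 or 9.09 in replicates 1, 2 and 3 passed a TPM of 1 with 1 count, which held for 91, 76 and 76 members. The highest ratio was that of Gm26447, in the Eif4a2 gene, where 4, 5 and 27.9 counts stood for 81.7, 49.4 and 195 TPM. Snora68 had 1.94, 0.82 and 0.76 counts and 34.0, 6.95 and 4.51 TPM. Gm23442 had 1 count in replicate 1 and none elsewhere, and a TPM of 14.03. Across the 113 members mean TPM and mean count had a Spearman rho of 0.90, a description across genes that share libraries and lengths.

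**Figure D1:**
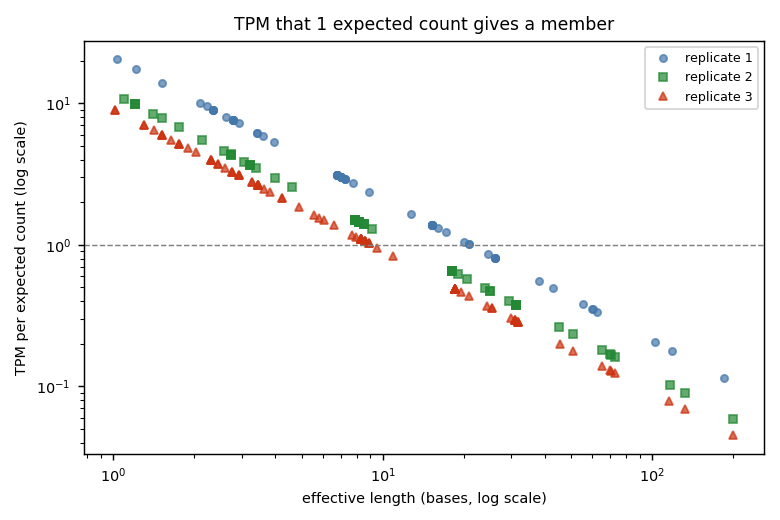
TPM per expected count (y, log scale) against effective length in bases (x, log scale) for members with at least 0.5 counts, 1 point per member and library. The points of a library fall on a line, from about 20.5 TPM per count at the shortest lengths of replicate 1 to 0.114 at the longest, and the dashed line marks 1 TPM per count.

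Read support therefore varied widely under the same threshold. The 3 counts of a member summed to under 1.5 for 26 members, whose highest TPM ran from 1.14 to 14.03, and to under 3 for 35. A mean of at least 10 counts was reached by 52. Just inside the threshold were Gm24145 (1.14 TPM), Gm23054 (1.18) and Gm24671 (1.38), each with 1 count in replicate 3 and none elsewhere. Just outside were Gm25813 (0.98 TPM from 2 counts), Gm23850 (0.92 from 1) and Gm23628 (0.81 from 1), also in replicate 3. Only 4 genes with a TPM above 0 stayed below 1 in every library, so among genes with an effective length the threshold came close to a cut at 1 read.

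A TPM of at least 1 was reached in all 3 libraries by 58 members (51.3%), beside 92.8% of the 10198 genes of any type that reached it in some library. It was reached in exactly 2 libraries by 15 and in exactly 1 by 40. Replicates 1 and 2 each passed a similar number, 71 and 72, and replicate 3 passed 101. Of the members seen in 1 library, 29 were seen in replicate 3, 6 in replicate 1 and 5 in replicate 2. Without replicate 3 the rule would have taken 84 members, of which 59 were detected in both remaining libraries. The 29 had a median of 1 count, and 7 of them would keep at least 1 count if replicate 3 were scaled to the total of replicate 1. A count of 0 allows up to 3 counts, so a member at 0 was not shown to be absent. A 0 can also follow from how reads were assigned. Gm24336 had 0, 0 and 4 expected counts, but 13, 14 and 60 in the kallisto-format counts, a second quantification of the same libraries. Gm24671 was at 0 in replicates 1 and 2 in both. How many zeros are due to depth was not tested.

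Members took 0.0203% of expected counts in replicate 1 (95% Wilson interval 0.0198 to 0.0209), 0.0265% in replicate 2 (0.0260 to 0.0270) and 0.0645% in replicate 3 (0.0638 to 0.0652). These intervals cover counting error only and do not overlap. In TPM the same members took 0.671%, 0.613% and 1.92%. Replicate 3 was the highest on both scales, and replicates 1 and 2 changed order between them. Rn7s1 and Rn7s2 were at 296412 to 314823 TPM each, so the TPM shares are set against a sum that these genes dominate.

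The major spliceosomal RNAs held most of the abundant members. Gm22513 had 206, 413 and 1839 counts in replicates 1, 2 and 3, or 645, 619 and 2020 TPM. Its sequence is the U1 above with a single substitution. Rnu1a1 and 6 genes of identical sequence (Gm22068, Gm22317, Gm22634, Gm23804, Gm25679 and Gm26444) were each given 63.8, 104 and 597 counts, or 200, 157 and 656 TPM. Reads cannot tell identical copies apart, so these equal values are a division of shared reads and say nothing of which locus was transcribed. Gm24305, with the substitution A26G, had 12.6, 21.5 and 125 counts.

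U1 genes of the b type on chromosome 3 were lower and unequal. Gm22614 and Gm25890, identical to each other and 1 base from Rnu1b1 (T33C), each had 39.3, 105 and 456 counts, or 119, 153 and 483 TPM. Rnu1b1 and Rnu1b2, identical copies, each had 1.00, 1.53 and 12.2 counts, and Rnu1b6 with its copies Gm24830 and Gm26232 had 4.11, 5.33 and 19.8 each. Gm24136, also on chromosome 3, had 1, 0 and 0 counts. Replicate 3 was the highest in all of these b-type genes except Gm24136.

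U2 members had longer effective lengths, 15.2, 18.1 and 18.6 in replicates 1, 2 and 3. Rnu2-10 and 3 identical copies (Gm23849, Gm23971 and Gm24950) were each given 230, 415 and 1587 counts, or 319, 271 and 775 TPM. Gm25939, which differs from Rnu2-10 at T69C, C78T and G109C, had 276, 565 and 2190 counts, or 383, 369 and 1070 TPM. Gm25360 had 58, 123 and 340 counts. Lowest were Gm26316 (15.9, 10.3 and 61.2 counts) and Gm22973 (5, 9 and 47), the last with 9 substitutions. In all of these replicate 3 stood above both other libraries.

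The U4 sequences on chromosome 5 are short in effective length, 2.35, 2.73 and 2.93. Gm24265 had 24, 49 and 196 counts, which gave 216, 213 and 609 TPM. Gm24407 had 13, 16 and 95 counts, or 117, 69.5 and 295 TPM. Rnu12, the only member with a minor spliceosomal symbol, had 4, 3 and 30 counts, or 21.4, 7.75 and 56.0 TPM. Its first 2 libraries rest on few reads, and replicate 3 was the highest. The other 7 snRNA members without a named match had at most 2 counts in any library, and none was detected in all 3.

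**Figure D2:**
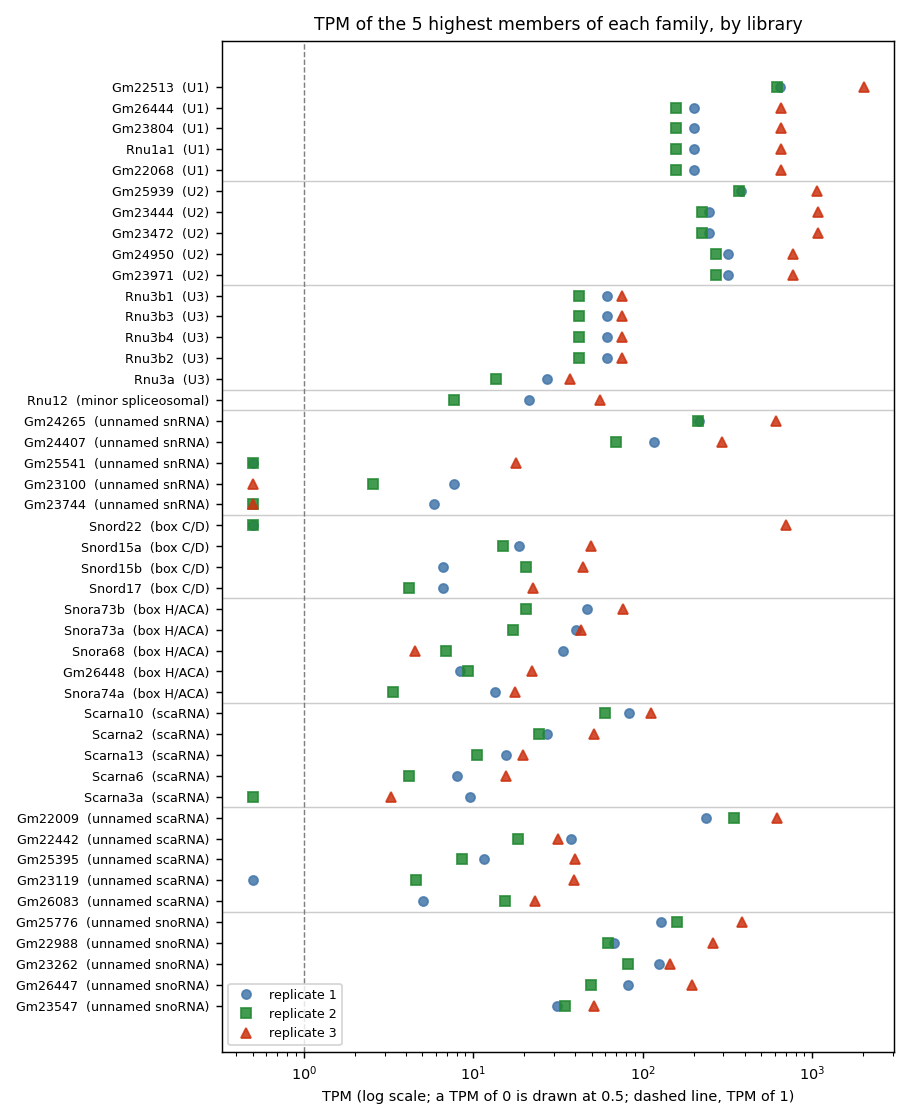
TPM (x, log scale, with 0 drawn at 0.5) of the 5 members of highest mean TPM in each family (y), with a circle, square and triangle for replicates 1, 2 and 3. The U1 and U2 members shown lie at 156.7 TPM or above in every library, replicate 3 is the rightmost point in most rows, and Snord22 is at 0 in replicates 1 and 2 and at 701 TPM in replicate 3.

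Among snoRNAs with a Rnu3 or Snord symbol, U3 had the most counts. Rnu3b1 to Rnu3b4 lie in introns of Tex14 and are each annotated in 2 versions, of 216 and 215 bases, which start at the same base. The 216-base versions were given 75.8, 111 and 263 counts each, or 61.3, 42.1 and 75.5 TPM. The 215-base versions had 0, 0 and 8.76 counts each. Summed over these 8 genes the counts were 303, 445 and 1087. Rnu3a, on chromosome 10, had 32, 34 and 122 counts, or 27.4, 13.6 and 37.1 TPM. Tex14 itself was at 0 to 0.01 TPM, so U3 and the 2 U1 copies in Tex14 were listed without a matching level of the gene around them.

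Of the other box C/D members, Snord22 had 16.0, 27.0 and 77.96 counts. Its effective length was 0, 0 and 1.01, so its TPM was 0, 0 and 701. Snord22 is thus a member through replicate 3 alone although its reads were present in all 3. Snord17, in an intron of Snx5, had 12, 16 and 113 counts. Snord15a and Snord15b, both in Rps3, had 3, 5 and 23 counts and 0.92, 5.89 and 17.8 counts. Replicate 3 was the highest for all 4.

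Box H/ACA genes summed to fewer counts than U3 in every library, and to more than the box C/D genes with a Snord symbol or match. An effective length above 0 was held by 346 of 370 box H/ACA genes and by 6 of 166 such box C/D genes. The order of box H/ACA and box C/D genes therefore mixes level with length. Snora73b and Snora73a, 2 copies in Snhg3 that match at 98.0%, had 46.9, 43.6 and 216 counts and 39.9, 36.6 and 122 counts. In TPM these were 47.2, 20.6 and 76.99 for Snora73b and 40.2, 17.3 and 43.3 for Snora73a. Snora74a had 11, 5.83 and 40.5 counts, and Gm26448, in an intron of Rpsa, had 8, 19 and 60. The other 13 members of the family had at most 3 counts in any library, and 5 of the 17 members of the family were detected in all 3 libraries.

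Unnamed snoRNA genes gave 27 members, 7 of them in all 3 libraries. The highest in TPM were Gm25776, in an intron of Gtf2a1, with 16, 41 and 139 counts (128, 159 and 387 TPM), and Gm22988, in Eif4a1, with 8.93, 16.9 and 98.5 counts (67.9, 62.2 and 260 TPM). Gm23262, in an exon of Eif4g2, had 46, 62.9 and 152 counts (125, 81.7 and 145 TPM). Gm23547, in an exon of Phb2, had 88.5, 205 and 395 counts but 31.4, 34.7 and 51.4 TPM, since its effective length was 59.7 to 69.9. For members that overlap an exon, reads of the host transcript cannot be told apart from reads of the snoRNA by these tables.

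ScaRNAs included the longest member, Scarna2 with 414 bases, and the member with the most counts. Of 12 members annotated as scaRNA, 6 had a mean of at least 10 counts. Gm22009, 343 bases long, had 1318, 3871 and 9103 counts, the most of any member in each library, and 235, 345 and 624 TPM. Scarna10, annotated as a snoRNA and lying in Ncapd2, had 403, 593 and 1431 counts (82.9, 60.4 and 112 TPM). Scarna2, outside genes of the same strand, had 239, 414 and 1132 counts (27.3, 24.4 and 51.4 TPM). Scarna13, in an intron of Snhg10, had 46, 65 and 158 counts. Gm25395 and Scarna6, both in introns of Atg16l1, had 33, 51 and 312 counts and 21, 23 and 112 counts. In log2 CPM, Gm22009 was at 5.60, 6.55 and 7.37 and Scarna10 at 3.89, 3.84 and 4.70, so replicates 1 and 2 differed for the former and lay close for the latter.

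By position, 52 members lay in introns of a gene on the same strand (46.02%, against 28.1% of the 2941 annotated genes) and 41 outside such genes (36.3%, against 65.9%). The 2941 include the 1792 genes with an effective length of 0, so this contrast mixes position with length. Tex14 held 10 of the 52, of which 8 were the Rnu3b genes that are annotated in 2 versions. Exons of retained-intron transcripts alone held 13, and other exons 7. The 53 distinct hosts included 7 ribosomal protein genes with 8 members and 6 Snhg genes with 7 members. Of the hosts, 46 were detected in all 3 libraries.

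Replicate 3 was then set against replicates 1 and 2 on TMM-scaled log2 CPM (counts scaled to library size, prior count 2), over the 52 members with a mean of at least 10 counts. The median difference of replicate 3 from the mean of the other libraries was 1.63, and it was 0.01 over all 13579 genes. At least 2-fold higher in replicate 3 than in both others were 35 of the 52 members, beside 6.63% of all genes tested. At least 2-fold lower than both were 0 members, beside 0.0884% of all genes, which is 12 genes. The filter uses replicate 3, and 61 members did not pass it, so the 52 are not a fair sample of the 113.

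In a choice added after seeing the data, members were taken from replicates 1 and 2 alone. A mean of at least 10 counts in replicates 1 and 2 was then asked in addition to the filter above. Of 45 such members 29 were at least 2-fold higher in replicate 3, beside 2.56% of 12676 genes, and the median difference was 1.64. The filter over all libraries stayed in force, so genes low in replicate 3 could still drop out and the choice is not fully free of replicate 3. Replicate 2 minus replicate 1 had a signed median of 0.12 in log2 CPM over the 52 members, and 47 lay within 1. The share of all genes within 1 was not taken. At least 2-fold higher in replicate 2 were 2 of the 52 members (3.85%), beside 0.169% of all genes. At least 2-fold lower in replicate 2 were 2 members (3.85%), beside 1.94%. For replicate 1, 0 members were higher, beside 0.258%, and 1 was lower (1.92%), beside 1.66%. With genes of identical sequence summed, also added later, 26 of 40 sequences were at least 2-fold higher, with a median of 1.51.

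**Figure D3:**
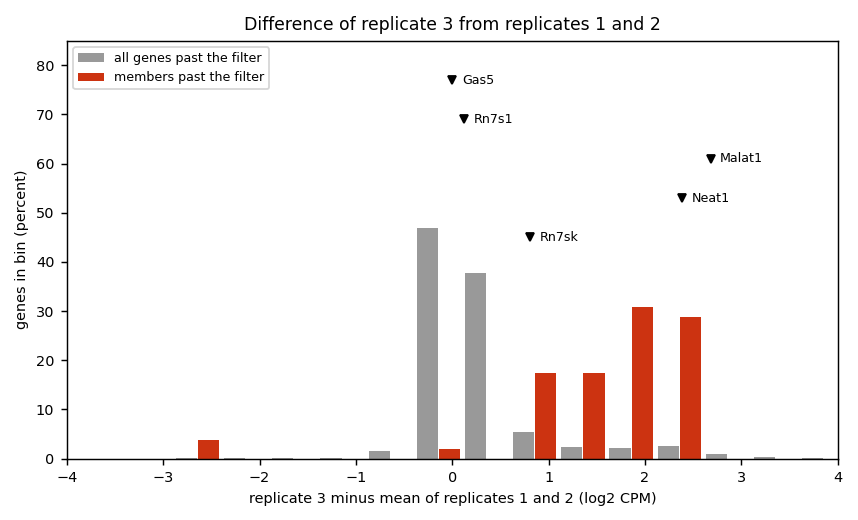
Share of genes (y, percent) by the difference of replicate 3 from the mean of replicates 1 and 2 (x, log2 CPM, bins of 0.5), for all 13579 genes past the filter (grey) and the 52 members past it (red). All genes gather around 0 and the members mostly between 0.5 and 2.5, and triangles mark Malat1, Neat1, Rn7sk, Rn7s1 and Gas5 at their differences (their height carries no value).

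Family sums, taken over every annotated gene of a family with no threshold, were highest in replicate 3 in every family shown by the plot of summed counts. U1 genes summed to 759, 1608 and 7142 counts, or 27.8, 38.8 and 129.9 CPM, a difference of 1.98 log2. U2 genes summed to 1811, 3393 and 13693 counts (1.75 log2) and the U4 sequences to 37, 65 and 291 (1.86). Rnu12 and its family summed to 4, 3 and 30 counts. Spliceosomal families were thus more than 3-fold above the mean of the other libraries, at 3.90-fold for U1, 3.36 for U2 and 3.62 for U4.

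The guide RNA families were also highest in replicate 3. U3 summed to 12.3, 11.6 and 21.98 CPM (0.88 log2) and named scaRNAs to 26.0, 26.4 and 51.5 CPM (0.97). Unnamed scaRNAs, mainly Gm22009, gave 49.9, 95.5 and 173 CPM (1.32). Box H/ACA genes summed to 4.10, 2.59 and 8.27 CPM (1.34), unnamed snoRNAs to 6.65, 8.36 and 16.9 CPM (1.18), and box C/D genes to 1.17, 1.30 and 4.21 CPM (1.77). Whether the families differ from one another in this respect was not tested, since replicate 3 is 1 library.

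**Figure D4:**
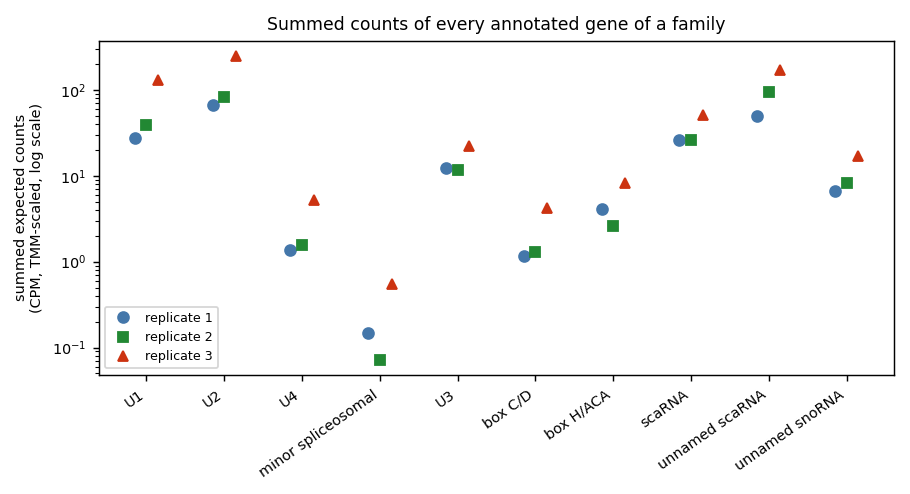
Summed expected counts of all annotated genes of a family (y, TMM-scaled CPM, log scale) for 10 families (x), with a circle, square and triangle for replicates 1, 2 and 3. The triangle is the highest point in every family, at 129.9 CPM for U1 and 21.98 for U3.

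The largest single differences were those of Gm23444 and Gm23472 (2.44 log2), Snord17 (2.19), Gm25395 (2.17) and the Rnu1a1 copies (2.14). The lowest were those of the U1 genes Gm24924 and Gm26244 (-2.86 each), Gm24497 (-0.45), Gm23262 (0.77) and the Rnu3b genes (0.80). The 3 negative values belonged to copies that share reads. Gm24924 and Gm26244 each differ from Rnu1a1 by 1 base and were given 0, 104 and 0.02 counts, where replicate 2 holds the very value of each Rnu1a1 copy. Summed with the 7 Rnu1a1 copies, the 9 genes had 446, 940 and 4179 counts, a difference of 1.98.

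Gm24497, with the substitutions G109C and C186A against Rnu2-10, was given 179, 341 and 295 counts. Gm23444 and Gm23472, with G109C alone, were given 179, 341 and 2205, so the 3 genes held equal values in replicates 1 and 2 and unequal ones in replicate 3. Their sum was 536, 1024 and 4706 counts, a difference of 1.96. The division of reads within such a group, and with it the order of its members, is uncertain, while the sums were highest in replicate 3. With kallisto-format counts the direction turned for Gm24497, to 1.48, and for Gm24924, to 4.09 from counts near 0 in replicates 1 and 2 and 44.6 in replicate 3, and Gm26244 did not pass the filter.

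Some other RNAs were also higher in replicate 3. Malat1, a nuclear long noncoding RNA, was at 224, 207 and 1008 TPM, a difference of 2.68 log2 CPM. Neat1, the RNA of paraspeckles, was at 18.7, 16.7 and 92.5 TPM (2.38). Kcnq1ot1 differed by 2.47, at 0.05, 0.02 and 0.15 TPM. Airn differed by 0.80, from 14, 14 and 42 counts. Rn7sk also differed by 0.80, at 46087, 75066 and 91053 TPM, so its replicate 1 lay well below replicate 2 too. Of these 5 RNAs listed as nuclear, 3 were at least 2-fold higher in replicate 3 than in both other libraries. Of 5 RNAs listed as exported none was, with differences of 0.12 for Rn7s1, 0.11 for Rn7s2, 0.00 for Gas5, 0.57 for Snhg1 and -0.08 for Zfas1. The part of nuclear RNA in the members' difference was not tested.

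Across annotated gene types, the share at least 2-fold higher in replicate 3 was 23 of 27 for snRNA (85.2%), 9 of 19 for snoRNA (47.4%) and 3 of 6 for scaRNA. The 27 snRNA genes include 7 Rnu1a1 copies and 4 Rnu2-10 copies of identical sequence. Such copies share reads and are not separate measurements, so the snRNA share cannot be ranked against those of other types. It was 377 of 505 for TEC genes (74.7%; loci awaiting experimental support), 38 of 51 for sense intronic RNAs (74.5%), 89 of 309 for lincRNAs (28.8%) and 144 of 11563 for protein-coding genes (1.25%). Depth also moved with it, since replicate 3 had the most counts. In bulk RNA, more RNA per cell and more cells with the RNA cannot be told apart.

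The host genes mostly stayed near 0 on this scale. Over the 50 hosts past the filter the median difference of replicate 3 was 0.00 log2, and 1 was at least 2-fold higher. Among 22 members and hosts that both passed, the member's difference was the larger in 18. The median of member minus host over all 22 was 1.21. The members below their hosts included Gm24924 and Gm26244, which share reads with other copies. Kpna4 differed by 0.05 while Gm22009 differed by 1.30, Snx5 by 0.00 and Snord17 by 2.19, and Atg16l1 by 0.20 and Gm25395 by 2.17. Snhg20 differed by 1.67 and Gm26083, in an exon of it, by 1.42.

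Proteins that bind these RNAs were measured by their mRNAs, from lists drawn up for this purpose. All 4 box C/D core mRNAs were detected in every library, among them Fbl, the methyltransferase fibrillarin, at 14.3, 11.2 and 10.4 TPM. Of 6 box H/ACA mRNAs 5 were, with Dkc1, the pseudouridine synthase, at 1.76, 1.35 and 1.83 TPM. All 7 Sm core mRNAs and all 14 snRNP-specific mRNAs were detected, with Snrpb at 32.7, 25.6 and 22.9 TPM and Snrnp70, the U1-specific protein, at 25.1, 22.6 and 25.3. None of these mRNAs was at least 2-fold higher or lower in replicate 3 than in both others. Among all protein-coding genes 1.25% were higher, and among all genes 0.0884% were lower, so 0 in lists of this size is near the background. The list medians lay between -0.27 (Sm core) and 0.01 (box H/ACA).

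The 6 minor spliceosome mRNAs were all detected, with a median difference of 0.14. Of 15 mRNAs for snRNP assembly and export 12 were detected in every library, including Phax, the export adaptor for snRNAs, at 10.1, 7.65 and 7.54 TPM and Smn1 at 5.56, 4.83 and 4.52, and their median difference was -0.09. Both Cajal body mRNAs were low, with Coil at 1.47, 1.34 and 1.24 TPM and Wrap53 at 1.24, 1.18 and 1.12. The 3 integrator mRNAs examined ran from a mean of 4.18 TPM for Ints11 to 5.23 for Ints9, and of the 3 U7-related mRNAs Lsm11 stayed below 1 TPM. In none of these lists was a gene at least 2-fold higher or lower in replicate 3, which is again near the background shares.

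The kallisto-format tables assigned reads to the same genes by another method, with effective lengths that do not reach 0. Over the 52 members with a mean of at least 10 RSEM-format counts, the kallisto-format count was higher for 49, and the median log2 ratio of the counts was 0.19. The ratios ran from -5.70 to 3.27. The highest was that of Rnu12, with 26, 62 and 327 kallisto-format counts against 4, 3 and 30. The lowest was that of Rnu3a, which is annotated in versions of 213 and 214 bases at chr10:40258467-40258680. The RSEM-format tables placed 32, 34 and 122 counts on the shorter version and 0 on the longer, while the kallisto-format tables placed 60.99, 90.5 and 334 on the longer and under 0.01 on the shorter. In TPM, the RSEM-format value was a median of 5.69 times the kallisto-format one among these members.

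**Figure D5:**
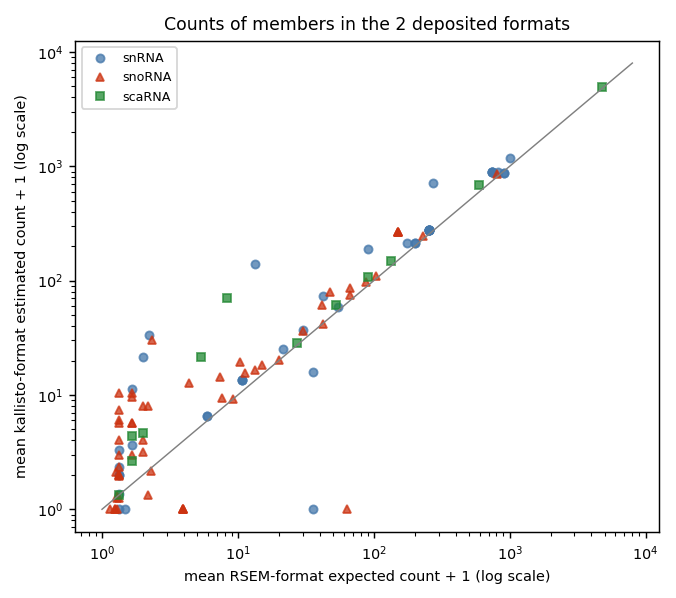
Mean kallisto-format estimated count plus 1 (y, log scale) against mean RSEM-format expected count plus 1 (x, log scale), 1 point per member, coloured by annotated type, with the line of equality. Most points lie on or above the line, and Rnu3a and Gm26244 lie far below it, with Gm24924 and the 215-base Rnu3b versions also below.

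Genes without an effective length held reads in the kallisto-format tables. Of the 1792 such genes, 10 had a mean of at least 10 estimated counts, and all 10 were highest in replicate 3 in counts. Gm25047, an snRNA gene of 104 bases, had 136, 250 and 332 counts. Gm24339, a snoRNA gene of 76 bases in an intron of Cep295, had 18, 27 and 91. Gm23172, in an intron of the macrophage receptor gene Mertk, had 3, 10 and 43. The U6 genes Gm24798 and Gm22108 had 11.5, 7.5 and 32.5 each. In the kallisto-format TPM, Gm25047 was at 56.9, 73.1 and 60.04, so its higher count in replicate 3 did not carry over to that scale, while Gm24339 was at 6.62, 7.44 and 17.2.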

How the data were processed

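The authors deposited, for each library, an RSEM-format gene table with expected counts and TPM and a kallisto-format transcript table with estimated counts and TPM, per the file headers; the values refer to mm10 and GENCODE M21, per the deposited notes, and tool versions are not given in the sources used here. Expected counts need not be whole and were rounded before scaling; strandedness of counting is not given in the sources used here. Transcript types, symbols and kallisto-format values were read per gene, and hosts, positions and sequences came from GENCODE M21, to which all 55536 genes matched. Families were set by symbol and, after seeing the data, also by blastn 2.17.0 match to a named gene (at least 80% identity and 80% coverage), and U4 by the first 60 bases of Gm24265. Counts were scaled with edgeR 4.0.16 (TMM, prior count 2), after a filter on a mean count of at least 10, and DESeq2 1.42.0 size factors were an alternative; the scaling was tested on simulated data. "At least 2-fold" means against both other libraries. Genes named are the 5 of highest mean TPM per family, the 5 largest and 5 lowest replicate 3 differences, those next to the threshold, the 5 highest in TPM per count, the 5 of effective length 0 with most kallisto-format counts, hosts, and fixed lists; other members were named after their values were seen. The members and lists were chosen with earlier results of these data known. Entries that are no gene held 0.406%, 0.121% and 0.0731% of counts beside the gene totals and stayed out.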

Additional observations from a re-analysis of the deposited data

How the results depend on the processing

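No paired analysis was possible because the 3 libraries form 1 group. The count of members detected in all 3 libraries, 58, stayed between 50 and 70 at TPM thresholds of 0.5, 2 and 5 and with kallisto-format TPM, and between 59 and 66 without 1 library. It rose to 940 genes with the posterior mean TPM, and 829 of the annotated genes that passed then had 0 expected counts in all 3 libraries. The mean share of counts, 0.0371%, lay between 0.0346% and 0.0431% under the other counts and the other denominator, and between 0.0234% (without replicate 3) and 0.0455% without 1 library. The median difference of replicate 3, 1.63 log2, was 1.12 over 110 members with no filter, 1.39 on log2(TPM + 1) and 1.43 on log2(TPM + 0.1), and 1.53 to 1.76 without 1 of the other libraries. Members at least 2-fold higher numbered 25 to 49 under these settings, with 49 of 110 for no filter beside 10.3% of all genes, 25 of 37 for a mean count of at least 50 beside 1.77%, and 39 of 62 with kallisto-format counts beside 16.5%. Members at least 2-fold lower numbered 0 in every setting except 2 without replicate 1 (0 without replicate 2), which are Gm24924 and Gm26244. With kallisto-format counts the single difference of Gm24497 went from -0.45 to 1.48 and that of Gm24924 from -2.86 to 4.09. The median log2 ratio of kallisto-format to RSEM-format counts, 0.19, was 0.32 with no filter and 0.18 to 0.24 without 1 library. Only the difference of replicate 3 from the other libraries has no value without replicate 3. The causes of these shifts were not tested. Depth limits the 61 members with a mean below 10 counts.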
